A study of Arabidopsis thaliana with 15 samples.

Results

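PUB19, PUB22, PUB23 and PUB24 are genes of plant U-box ubiquitin ligases, measured here in Arabidopsis thaliana roots before and during parabolic flight. They are 4 of the 10 genes with a PUB-numbered symbol and an array row of their own, among 16550 tested genes. The 4 were chosen by their array values across the 4 groups, with earlier results of these same arrays known, so their levels and differences are given as a description, with no p-value. How many of them passed the threshold of the fit over all genes is printed beside the share of all genes that did, and nothing is read from it. The other 6 PUB-numbered genes served as background. Each of the 4 had 1 row on the array.

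The series held 15 Affymetrix AraGene arrays, each of total RNA from a pool of whole roots. All seedlings were 10 days old, grown in continuous light, of the cultivar Wassilewskija and of the genotype pCaMV35S:14-3-3κ:GFP. This transgene makes the regulatory protein 14-3-3κ joined to a green fluorescent protein, driven in most tissues by a viral promoter, and the level-flight roots carried it too. Roots were fixed in RNAlater on a C-9 aircraft in level flight (n = 4), after parabola 1 (n = 4), after parabola 3 (n = 4) or after parabola 10 (n = 3). In a parabola the aircraft pulls up, arcs over while weight is reduced, and pulls out, and level flight is the control for each parabola group. The pools of a group came from 1 fixation tube, so the spread between arrays is that among pools of 1 tube, and parabolas, tube and time on board cannot be told apart.

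Ubiquitin ligases choose the proteins to which ubiquitin is attached, after an E1 enzyme has activated the ubiquitin and an E2 enzyme has carried it. Plant U-box ligases bind the E2 through a U-box, a fold related to the RING finger. In Arabidopsis, PUB22, PUB23 and PUB24 are known as partly redundant brakes on pattern-triggered immunity, the response to microbial molecules sensed at the cell surface. PUB22 is known to mark the exocyst subunit Exo70B2 for degradation, and PUB22 and PUB23 act on the proteasome subunit RPN12a under water shortage. PUB19 is known as a negative regulator of responses to abscisic acid and drought.

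The arrays resembled each other in scale. Array medians of the tested genes were 3.65 to 3.70 in log2 units, and the lowest correlation of an array with another of its group was between 0.989 and 0.993. The root hair expansin genes EXPA7 and EXPA18 were the 2 measured of 10 root markers, and their array values were 5.52 to 6.79. EXPA7 was also higher after parabola 3 (by 0.55) and parabola 10 (by 0.81) than in level flight, and its part in the PUB results was not tested. None of the 12 listed markers of green shoot tissue was among the tested genes, so carry-over of shoot RNA was not tested. In 7083 rows without a gene name, the array median was highest on average in parabola 1, at 2.63 ± 0.05 (SD, n = 4). It was 2.48 ± 0.04 (SD, n = 4) for level arrays, 2.48 ± 0.07 (SD, n = 4) for parabola 3 and 2.42 ± 0.05 (SD, n = 3) for parabola 10. Arrays overlapped, with parabola 3 replicate 1 at 2.58 and parabola 1 replicate 4 at 2.56.

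In level flight PUB23 (locus AT2G35930) stood at 8.95, 8.78, 9.10 and 9.03 on the log2 scale of the deposited values. After parabola 1 it was at 7.27, 7.30, 7.31 and 6.92, after parabola 3 at 7.52, 6.88, 7.24 and 7.05, and after parabola 10 at 6.37, 6.60 and 6.35. Every array of the 3 parabola groups thus lay below every level array, and the parabola 10 arrays lay below all others. The difference from level flight was −1.76 ± 0.13 (standard error, SE, of the fitted log2 difference) after parabola 1, or 3.40-fold lower. It was −1.79 ± 0.13 SE after parabola 3 (3.46-fold lower) and −2.53 ± 0.14 SE after parabola 10 (5.76-fold lower). Counted from the lowest difference of all tested genes, PUB23 ranked at 18 of 16550 after parabola 10. In whole roots a lower value can mean fewer cells of a type or less RNA per cell, and these cannot be told apart.

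PUB24 (locus AT3G11840) was lower in the same way, by a smaller amount. Its level arrays were at 8.36, 7.93, 8.60 and 8.75. The parabola 1 arrays were at 7.22, 7.36, 7.17 and 7.06, the parabola 3 arrays at 7.16, 6.85, 7.60 and 7.23, and the parabola 10 arrays at 6.73, 6.59 and 6.44. No parabola array reached the lowest level array, and the parabola 10 arrays again lay below all others. Its difference from level flight was −1.21 ± 0.16 SE after parabola 1 (2.31-fold lower), −1.20 ± 0.16 SE after parabola 3 (2.29-fold lower) and −1.82 ± 0.18 SE after parabola 10 (3.53-fold lower). For both PUB23 and PUB24 the means after parabola 1 and parabola 3 were close, with parabola 3 minus parabola 1 at −0.03 ± 0.13 SE for PUB23 and 0.01 ± 0.16 SE for PUB24. The step from parabola 3 to parabola 10 was −0.74 ± 0.14 SE in PUB23 and −0.62 ± 0.18 SE in PUB24.

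PUB22 (locus AT3G52450) took another course. Level arrays were at 7.61, 7.41, 7.88 and 7.98, and parabola 1 arrays at 6.61, 6.87, 6.39 and 6.61. After parabola 3 it was at 7.84, 6.90, 7.38 and 7.20, and after parabola 10 at 6.79, 6.44 and 5.95. Thus the parabola 3 arrays lay above all parabola 1 arrays, though the nearest were 6.90 and 6.87, and they overlapped the level arrays, with replicate 1 at 7.84 above 2 of these. The difference from level flight was −1.10 ± 0.19 SE after parabola 1 (2.14-fold lower), −0.39 ± 0.19 SE after parabola 3 (1.31-fold lower) and −1.33 ± 0.21 SE after parabola 10 (2.51-fold lower).

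Between the parabola groups, PUB22 was 0.71 ± 0.19 SE higher after parabola 3 than after parabola 1, and the step from parabola 3 to parabola 10 was −0.94 ± 0.21 SE. Without parabola 3 replicate 1 the first of these was 0.54, and without parabola 3 replicate 2 it was 0.85. The parabola 3 difference from level flight ranged from −0.56 without parabola 3 replicate 1 to −0.24 without replicate 2. PUB22 and PUB23 are close relatives, and how the probes of each row separate them is not given in the sources used here. Their rows differed in parabola 3, where PUB23 stayed 3.46-fold below level flight.

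PUB19 (locus AT1G60190) had dim signals. In level flight it was at 3.29, 3.14, 2.96 and 3.03, below the median of the tested genes on all 15 arrays. After parabola 1 it was at 2.27, 2.31, 2.42 and 2.34, after parabola 3 at 1.67, 2.17, 2.29 and 2.45, and after parabola 10 at 2.01, 2.08 and 1.87. All parabola arrays lay below all level arrays. Their values of 1.67 to 2.45 were near or under the array medians of the unnamed rows (2.39 to 2.68). The difference from level flight was −0.77 ± 0.13 SE after parabola 1 (1.71-fold lower), −0.96 ± 0.13 SE after parabola 3 (1.95-fold lower) and −1.12 ± 0.14 SE after parabola 10 (2.17-fold lower). With the unnamed-row median in the model, the parabola 1 difference of PUB19 was −0.34 ± 0.16 SE, that after parabola 3 −0.95 and that after parabola 10 −1.27. For dim rows a fold change on this scale can understate the change of the RNA.

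**Figure D1:**
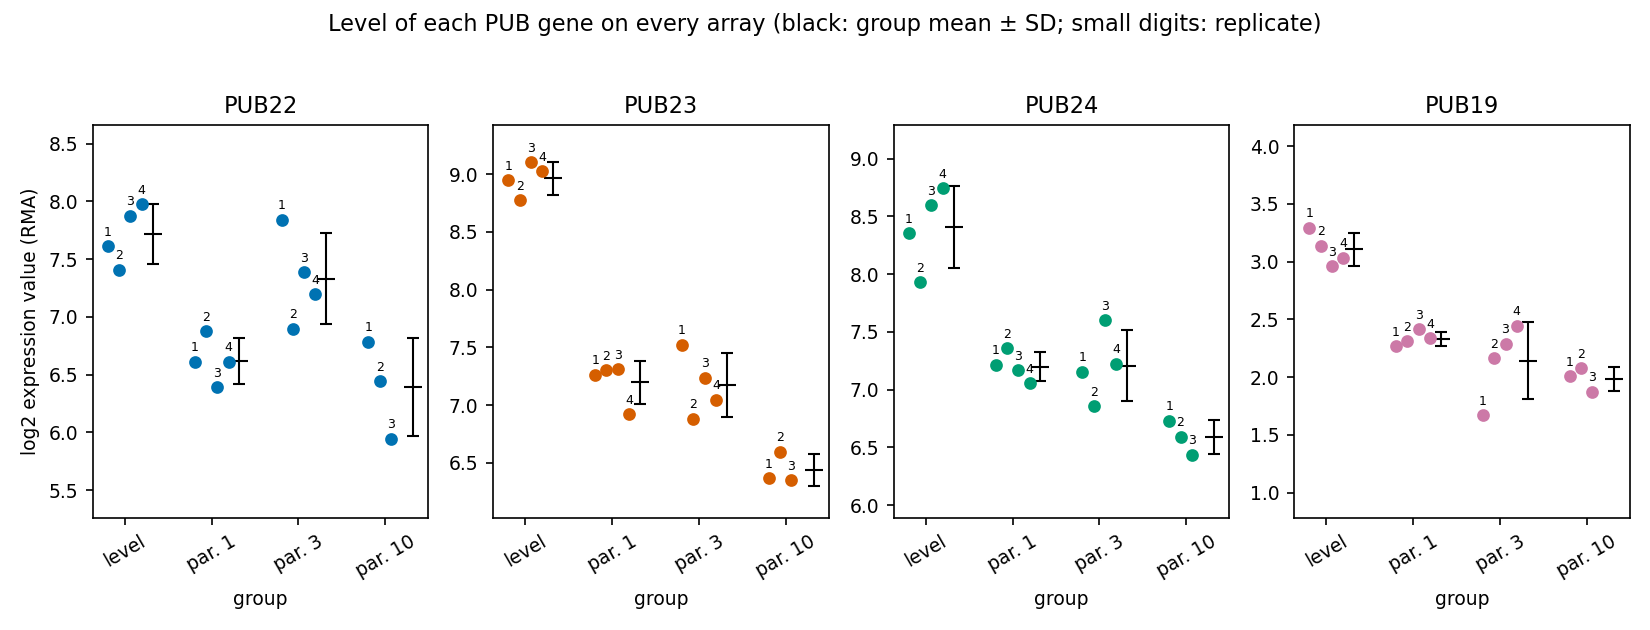
Log2 expression value (vertical axis, each panel spanning the same number of log2 units) of PUB22, PUB23, PUB24 and PUB19 on every array, by group (par. = parabola). Coloured points are arrays with their replicate number, and black bars are the group mean ± SD (n = 4, and n = 3 after parabola 10). PUB23 and PUB24 step down after parabola 1 and again after parabola 10, PUB22 after parabola 3 overlaps level flight, and PUB19 lies between 1.67 and 2.45 in all parabola groups.

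In the fit over all 16550 genes, 4 of the 4 genes were lower with an adjusted p under 0.05 (limma, Benjamini-Hochberg) after parabola 1, where 4.85% of all genes were. After parabola 3 this held for 3 of 4, all but PUB22, against 6.69% of all genes. After parabola 10 it held for 4 of 4 against 7.11%. The median difference of the 4 was −1.15, −1.08 and −1.57 after parabola 1, 3 and 10, and that of all genes 0.01, 0.03 and 0.04. The groups did not overlap, with parabolas lower, in 4, 3 and 4 of the 4 genes, against 7.25%, 8.37% and 10.6% of all genes. The 3 comparisons share the level arrays.

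Between parabola groups the 4 genes ranged from −0.19 (PUB19) to 0.71 (PUB22) for parabola 3 minus parabola 1, and PUB22 was the only one whose groups did not overlap upward (3.72% of all genes did so). From parabola 3 to parabola 10 the values were −0.94 in PUB22, −0.74 in PUB23, −0.62 in PUB24 and −0.16 in PUB19. All but PUB19 lay wholly lower after parabola 10 than after parabola 3, as 3.86% of all genes did. For parabola 10 minus parabola 1, PUB19 (−0.35), PUB23 (−0.76) and PUB24 (−0.61) lay wholly lower, as 6.28% of all genes did, and PUB22 (−0.23) overlapped. That value of PUB22 was −0.0058 without parabola 10 replicate 3 and −0.43 without replicate 1. For PUB19, leaving out parabola 3 replicate 1 gave −0.03 for parabola 3 minus parabola 1 and −0.31 for parabola 10 minus parabola 3, and leaving out replicate 4 gave −0.29 and −0.06. With the unnamed-row median in the model, parabola 10 minus parabola 1 was −0.38 in PUB23 and 0.095 in PUB22.

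None of the other 6 PUB-numbered genes passed the test against level flight. After parabola 1, parabola 3 and parabola 10, 0 of 6 passed in limma at an adjusted p under 0.05. Of all genes, 8.33%, 11.2% and 14.6% passed at that threshold in either direction. With 6 genes, 0 passing is near that background. An unadjusted p under 0.05 was also found in 0 of 6, and the share of all genes at that threshold is not given here. The median difference of the 6 was −0.02, 0.09 and 0.05. PUB25 and PUB26, which in Arabidopsis act on the immune kinase BIK1, differed from level flight by −0.06 ± 0.15 SE and 0.02 ± 0.11 SE after parabola 1. After parabola 3 PUB25 differed by 0.16 ± 0.15 SE and PUB26 by 0.17 ± 0.11 SE, the largest difference of each. After parabola 10 PUB25 differed by −0.01 ± 0.16 SE and PUB26 by 0.11 ± 0.11 SE. PUB43 ranged over all arrays from 5.58 to 6.15, and its largest difference from level flight was −0.16 ± 0.13 SE after parabola 3.

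PUB15, PUB39 and PUB54 lay below the median of the tested genes on all 15 arrays, and PUB25 on 14 of them. The widest of their differences from level flight was −0.29 ± 0.14 SE for PUB39 after parabola 1. After parabola 10 PUB39 was 0.49 ± 0.15 SE higher than after parabola 1 (limma adjusted p = 0.0859, unadjusted p = 0.00485). The range over the 15 arrays was 2.75 log2 units in PUB23, 2.31 in PUB24, 2.03 in PUB22 and 1.62 in PUB19. In the other 6 genes it was between 0.31 (PUB15) and 1.00 (PUB39). Another 3 rows list a PUB symbol together with a second gene and are not named here.

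**Figure D2:**
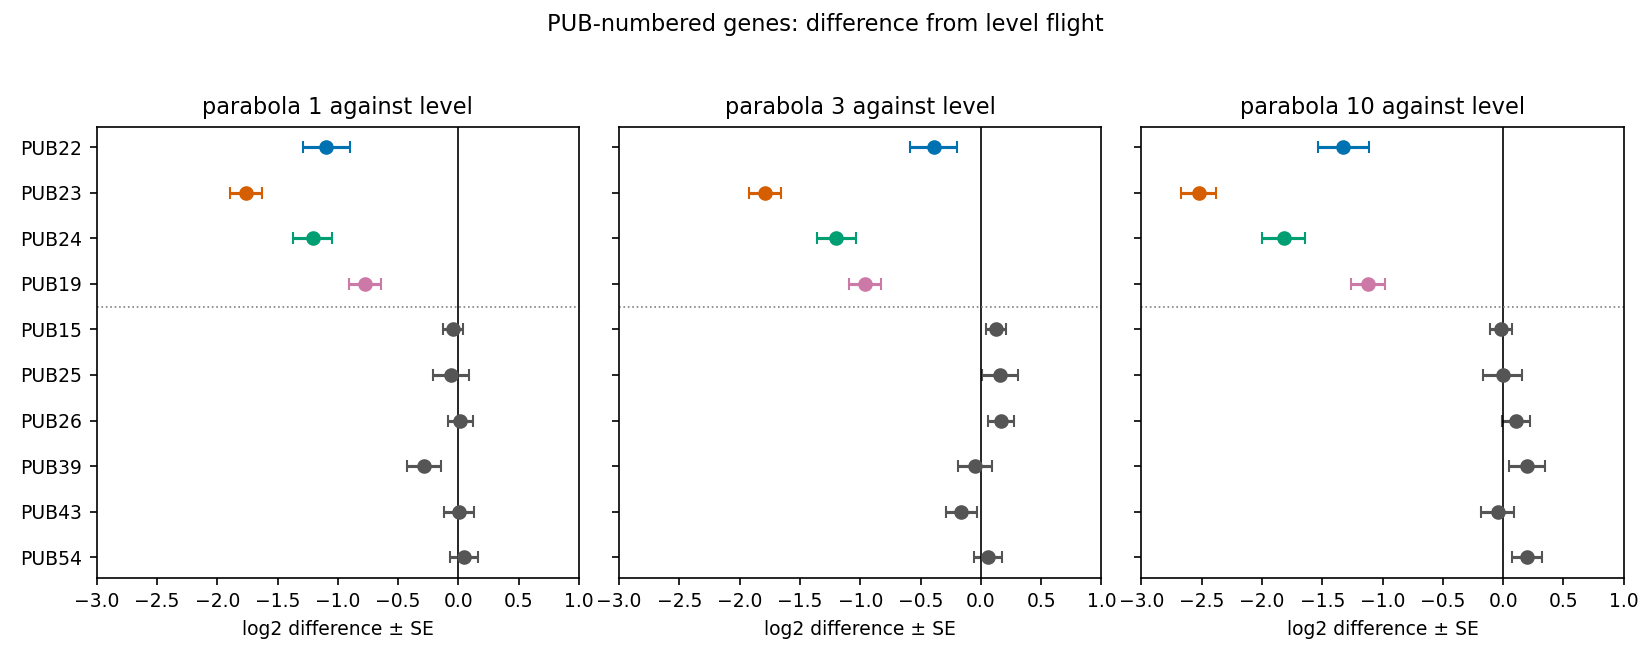
Log2 difference from level flight (horizontal axis) for the 10 PUB-numbered genes in 3 comparisons. Points are fitted differences and bars their SE, with the 4 chosen genes in colour above the dotted line and the other 6 in grey below it. The coloured points lie between −2.53 and −0.39, and the grey points between −0.29 and 0.20.

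Within groups, arrays deviated together in PUB22, PUB23 and PUB24. Over the 15 arrays, deviations from the group means correlated at 0.63 between PUB22 and PUB23, 0.63 between PUB22 and PUB24, and 0.53 between PUB23 and PUB24. Level replicate 2 and parabola 3 replicate 2 were below their group means in all 3 genes, by 0.47 and 0.35 log2 units in PUB24. PUB19 did not share this, with correlations of −0.45 with PUB22, −0.49 with PUB23 and 0.03 with PUB24.

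Parabola 3 replicate 1 was the array in which the genes parted most. There PUB22 deviated by 0.51 and PUB23 by 0.35 from their group means, PUB24 by −0.05 and PUB19 by −0.47. Without this array the correlations of PUB19 with PUB22 and PUB23 were −0.14 and −0.13. Those of PUB22 with PUB23 and with PUB24 were then 0.50 and 0.77, and that of PUB23 with PUB24 was 0.68. Each correlation rests on arrays that share labelling and scaling, and it is a description of these 15 arrays.

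**Figure D3:**
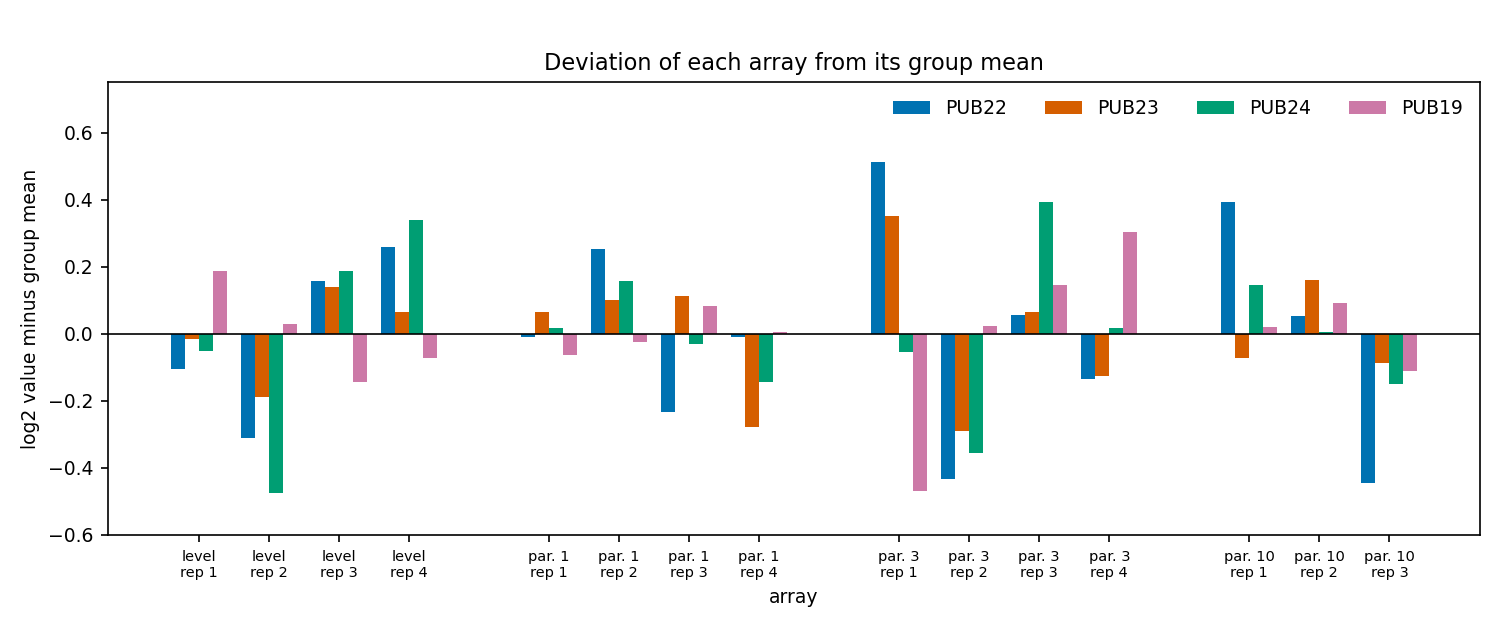
Log2 value minus the group mean (vertical axis) for each of the 15 arrays (horizontal axis) and each of the 4 genes (colours). In parabola 3 replicate 1, PUB22 is 0.51 above and PUB19 0.47 below its group mean, while in level replicate 2 and parabola 3 replicate 2 the bars of PUB22, PUB23 and PUB24 all point down.

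The 5 genes most correlated with each of the 4 over the 15 arrays were found among all tested genes. For PUB23 these were OPCL1 (r = 0.98), a CoA ligase gene of jasmonic acid synthesis, AT1G17145, the zinc finger gene STZ, AT1G78410 and AT4G36010, with r from 0.974. For PUB24 they were AT1G19020 (r = 0.98), SRC2, a gene known from cold response, AT1G67920, AT1G33600 and AT5G57010, with r from 0.972. With the group means taken out, the correlations were 0.45 to 0.59 for the 5 genes of PUB23 and 0.78 to 0.85 for those of PUB24. These values are partly built in, as the genes were picked on the same arrays.

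The genes most correlated with PUB22 were AT4G18950 (r = 0.96), AT2G43120, ABR1, an AP2/ERF transcription factor gene, AT1G30700 and AT3G09010. Having been picked for likeness, these had a smaller difference from level flight after parabola 3 than after parabola 1, as PUB22 did. AT2G43120 was at −1.40 after parabola 1, −0.15 after parabola 3 and −1.76 after parabola 10. ABR1 was at −1.03, −0.25 and −0.98 in the same order. Within groups their deviations correlated with those of PUB22 at 0.84 to 0.88, which is partly built in, as the same arrays picked the genes.

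Nearest to PUB19 were AT4G30470 (r = 0.96), AT3G25790, the beta-tubulin gene TUB1, the xyloglucan endotransglucosylase gene XTH19 and AT1G74450. TUB1 was at −0.87, −1.24 and −1.11 after parabola 1, 3 and 10, and XTH19 at −0.95, −1.11 and −1.53. Within groups the deviations of the 5 genes correlated with those of PUB19 at 0.44 to 0.79. No gene appeared in more than 1 of the 4 sets of 5.

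**Figure D4:**
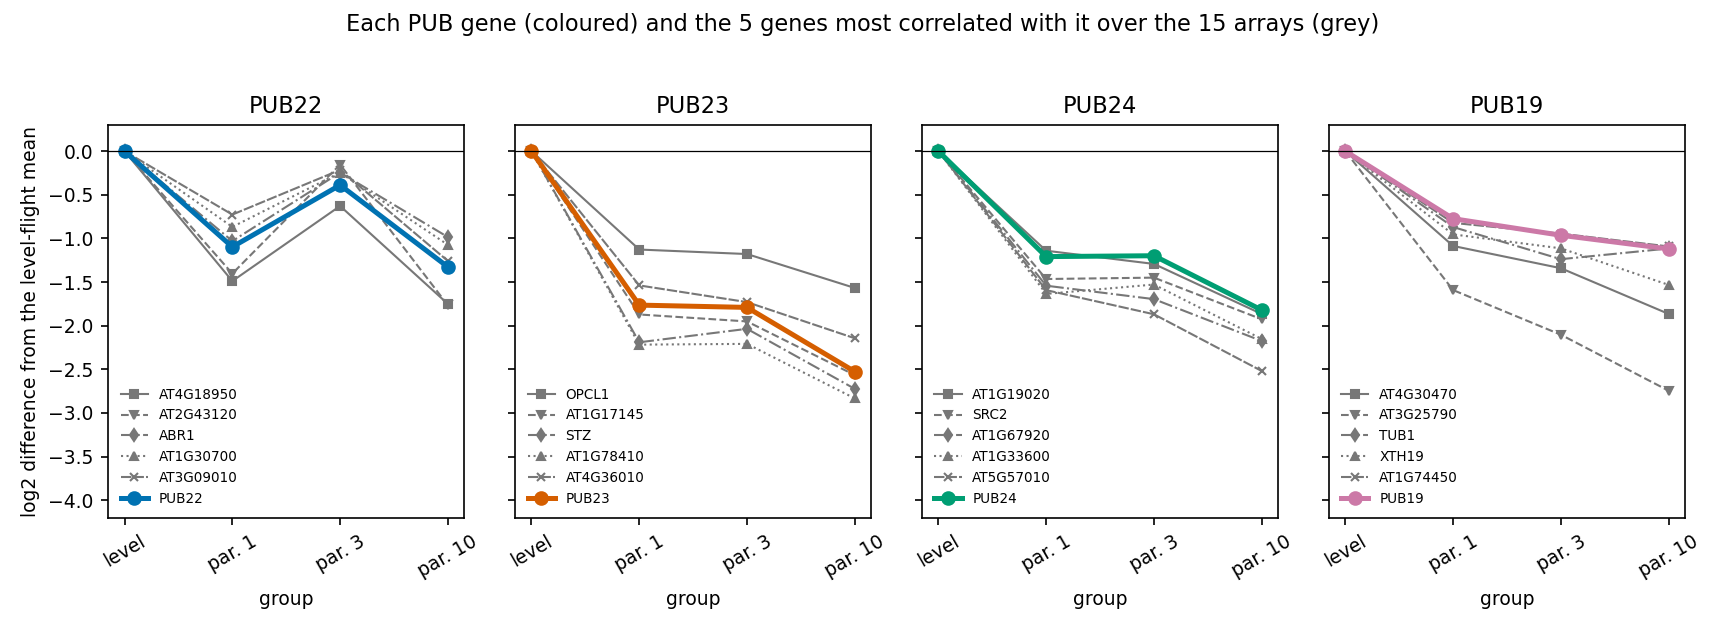
Group mean minus the level-flight mean (log2, vertical axis) by group for each of the 4 PUB genes (thick coloured lines) and the 5 genes most correlated with it over the 15 arrays (grey lines, listed in each panel). Lines for PUB22 and its 5 genes come back toward 0 after parabola 3, at −0.39 for PUB22, while PUB23 is at −1.79, PUB24 at −1.20 and PUB19 at −0.96 there.

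Genes known to work with these ligases were few on the list of tested genes. This and the following gene lists were chosen with earlier results of these data known, so their counts and p-values are a description. Of 9 listed partners and close relatives 2 were measured, RPN12a and AT5G37490, and 0 passed in any comparison with level flight. AT5G37490 was listed as PUB21 but has no PUB-numbered symbol here, so it is not among the background PUB genes. Its differences from level flight were −0.02, −0.09 and −0.04 after parabola 1, 3 and 10 (each ± 0.09 SE). RPN12a, the proteasome subunit on which PUB22 and PUB23 act, was at 9.95 to 10.2 in level flight and 9.72 to 9.88 after parabola 1. These groups did not overlap, and the difference was −0.28 ± 0.09 SE (limma adjusted p = 0.0618, unadjusted p = 0.00558). It passed with centring on reference genes, trend and robust options, array weights or without level replicate 3. After parabola 10 it was −0.07 ± 0.09 SE. Of the 10 listed EXO70 exocyst genes none was among the tested genes, and Exo70B2 is therefore not analysed here.

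No measured gene of the general ubiquitin machinery passed the test. Of 21 listed genes for ubiquitin, E1 and E2 enzymes and proteasome subunits 4 were measured, and 0 rose and 0 fell after parabola 1, 3 or 10, where 8.33%, 11.2% and 14.6% of all genes passed, so that 0 of 4 is near the background. At an unadjusted p under 0.05 there was 1 (RPN12a) after parabola 1 and 0 after parabola 3 and parabola 10. The E2 genes UBC28, UBC29 and UBC30 differed from level flight by −0.19 to 0.32. The list median was 0.04 after parabola 1, −0.04 after parabola 3 and −0.03 after parabola 10, where the medians of all genes were 0.01, 0.03 and 0.04.

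Among genes that pattern-triggered immunity switches on early, 3 of the 4 measured fell. These were WRKY6, WRKY22 and STZ, of 21 genes listed, and they fell in all 3 comparisons with level flight, while WRKY29 rose after parabola 3. Of all genes, 4.85%, 6.69% and 7.11% fell after parabola 1, 3 and 10. The list was chosen with earlier results of these data known, and STZ was also picked above for likeness to PUB23. The counts are thus a description. WRKY22, a transcription factor gene downstream of the flagellin receptor, fell by 1.40 ± 0.17 SE on the log2 scale after parabola 1 (limma adjusted p = 2.96e-05), by 0.64 ± 0.17 SE after parabola 3 (adjusted p = 0.0209) and by 1.39 ± 0.18 SE after parabola 10. It was 0.76 ± 0.17 SE higher after parabola 3 than after parabola 1 (adjusted p = 0.0297), a comparison in which 1.72% of all genes passed. Its fall after parabola 3 did not pass when level replicate 1 or 3, or parabola 3 replicate 2 or 4, was omitted, with adjusted p up to 0.0744.

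WRKY6, a gene of defence and senescence, fell by 0.64 ± 0.13 SE after parabola 1, 0.55 ± 0.13 SE after parabola 3 and 0.99 ± 0.14 SE after parabola 10, the first of which did not pass with the unnamed-row median in the model. STZ fell most, with differences of −2.19, −2.04 and −2.72. WRKY29, which acts beside WRKY22, rose by 0.79 ± 0.20 SE after parabola 3 (adjusted p = 0.0132). It was at 0.09 ± 0.20 SE after parabola 1 and 0.52 ± 0.21 SE after parabola 10, which did not pass. The latter was 0.27 without parabola 10 replicate 1 and 0.79 without replicate 3, where it passed (limma adjusted p = 0.0157). The list median was −1.02, −0.59 and −1.19 after parabola 1, 3 and 10, and that of all genes 0.01, 0.03 and 0.04.

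Of 17 listed receptors and kinases of pattern-triggered immunity 2 were measured. BIK1, a kinase that acts directly below immune receptors, rose by 0.43 ± 0.13 SE after parabola 3 (limma adjusted p = 0.0494) and by 0.56 ± 0.15 SE after parabola 10 (adjusted p = 0.0139). The parabola 3 call was lost in 16 of 25 alternatives, among them the omission of any level, parabola 1 or parabola 3 array or of parabola 10 replicate 2, where the difference ranged from 0.37 to 0.46 over the 25. The parabola 10 call was lost without parabola 10 replicate 1 (0.32) and with the arrays of the 2 groups alone. EFR, the receptor of a bacterial elongation factor, was at 0.47 ± 0.18 SE after parabola 3 and did not pass (adjusted p = 0.104). The median of both genes was 0.09, 0.45 and 0.44.

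Abscisic acid and dehydration genes were listed for the known role of PUB19, with earlier results of these data known. Nothing about that role is read from them. Of 16 listed 5 were measured, of which 1, 3 and 2 fell and 0 rose after parabola 1, 3 and 10, with medians of −0.27, −0.53 and −0.48. Among all genes 4.85%, 6.69% and 7.11% fell, with medians of 0.01, 0.03 and 0.04. KIN2 fell in each, a call after parabola 1 that was lost in 8 of 25 alternatives, KIN1 after parabola 3 and parabola 10, and COR47 after parabola 3. KIN1, a cold and dehydration gene, was 1.06 ± 0.26 SE lower on the log2 scale after parabola 10 than after parabola 1 (adjusted p = 0.0321), where 3.56% of all genes passed. PUB19 was at −0.35 ± 0.14 SE in that comparison. LTI30 and COR15A did not pass, but COR15A after parabola 10 (−0.48, limma adjusted p = 0.0628) passed with quantile normalization repeated (adjusted p = 0.0349), the arrays of the 2 groups alone, a replicate block, or without level replicate 1 or parabola 1 replicate 1 or 3.

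**Figure D5:**
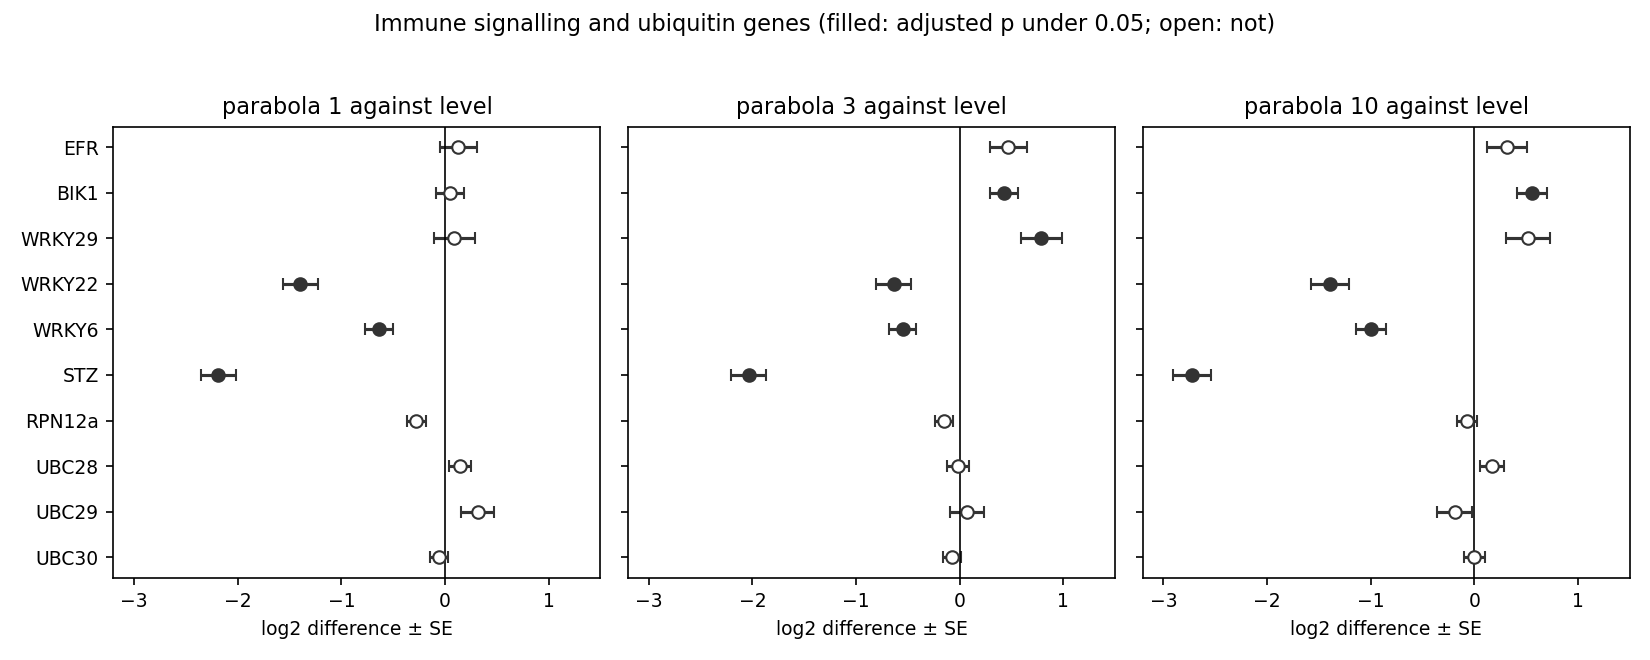
Log2 difference from level flight (horizontal axis, ± SE) of 2 immune kinase and receptor genes, 4 early immune response genes and 4 ubiquitin machinery genes in 3 comparisons. Filled points had an adjusted p under 0.05 and open points did not. WRKY22, WRKY6 and STZ are filled and left of 0 throughout, WRKY29 after parabola 3 and BIK1 after parabola 3 and 10 are filled and right of 0, and the ubiquitin genes lie between −0.28 and 0.32.

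The genes beside the 4 PUB genes on the chromosomes were looked up in the order of the reference table. Among the 2 nearest places on either side of each, 10 of 16 held a tested gene. Of these, 2 passed in any comparison with level flight, where 19.9% of all genes did. AT3G52460, next to PUB22, rose after parabola 1 (0.41), parabola 3 (0.43) and parabola 10 (0.83), opposite to PUB22. AT3G11830, next to PUB24, fell after parabola 10 (−0.42) and was at 0.06 after parabola 1 and −0.02 after parabola 3.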

How the data were processed

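The authors deposited log2 values, 1 per probe set and array. Per the submitters' processing notes the tools were oligo, RMA and limma with R 4.0.0, and the build TAIR10, with no roles stated. RMA puts arrays on a common scale, so a row can be compared between arrays but not with another row. How rows were filtered is not stated. The table held 38408 rows and 0 columns of other samples. Of the rows, 16722 had exactly 1 gene, 759 several and 20927 none. The row with the highest mean was kept for 146 genes with several rows, which left 16550 genes. In 38.5% of these, some arrays share an identical value. The number of arrays limits the precision.

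Group means were fitted to all genes with limma 3.58.1 in R 4.3.3 (lmFit, eBayes) over 6 contrasts, two-sided, with Benjamini-Hochberg adjustment in each contrast over all genes and a threshold of 0.05. The script was tested on simulated data. Names and gene order came from a table of TAIR10.1, to which 16411 genes matched by number; no coordinates are given. The text names all PUB-numbered genes, listed genes that passed and up to 4 others of each list, and the 5 genes most correlated with each of the 4. Members and lists were chosen with earlier results of these data known. The 9 lists were partners, immune receptors and kinases, early immune genes, abscisic acid and dehydration, ubiquitin machinery, EXO70, root, shoot and reference genes. Of 11 reference genes 5 were measured and 0 passed, while 0, 0 and 1 had an unadjusted p under 0.05 after parabola 1, 3 and 10. EXPA7 rose after parabola 3 (0.55) and parabola 10 (0.81), the former lost without parabola 3 replicate 2, and EXPA18 did not pass. The closing section gives the alternatives.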

Additional observations from a re-analysis of the deposited data

Results flagged for a closer look

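The PUB-numbered genes and the named genes of the lists, 32 in all, were searched for arrays far from the rest of their group. Genes named only for their correlation with the 4 were not searched. The search covered 96 groups of 4, with Dixon's test at the 95% level, which chance passes in about 1 of 20 groups. There were 7 such arrays, 1 of them in the 4 chosen genes. For PUB25 and COR15A the other 3 arrays of the group hold 1 identical value, so any differing array passes there by construction. PUB23 was at 6.92 in parabola 1 replicate 4 and at 7.27 to 7.31 in the other 3 arrays, all below level flight. Without this array its parabola 1 difference from level flight was −1.67.

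Among the other PUB genes, PUB15 was at 2.03 in level replicate 4 and 1.92 to 1.93 in the others. PUB25 was at 3.33 in level replicate 1, and the other 3 level arrays held the identical value 3.28. WRKY29 was at 7.45 in parabola 1 replicate 1 (others 7.95 to 7.99). LTI30 was at 6.46 in parabola 1 replicate 2 (others 6.10 to 6.16). COR15A was at 2.49 in parabola 3 replicate 4, and the other 3 arrays held the identical value 2.65. The reference gene AT4G34270 was at 6.96 in level replicate 1 (others 6.84 to 6.86).

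The same 32 genes were searched for differences from level flight that differed between parabola groups in the test of that difference. Outside the chosen 4 there were 2 such genes. Genes named only for their correlation with the 4 were again not searched, so this is no count over all genes named in the text. WRKY22 was 0.76 ± 0.17 SE higher after parabola 3 than after parabola 1 (limma adjusted p = 0.0297), and KIN1 was lower after parabola 10 than after parabola 1 (−1.06 ± 0.26 SE, limma adjusted p = 0.0321). For the 4 chosen genes, picked on these values, no such test is reported.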

How the results depend on the processing

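All 120 recomputed differences of the 4 genes from level flight stayed below 0, as did all 180 with 1 array left out. Many of these were fixed in advance. A low-mean filter, all rows, the 2 groups alone, or trend and robust options cannot change a difference of group means. Nor can leaving out an array of a group outside the comparison. Of the 120 and 180, 118 and 180 moved by less than 1 SD between replicates. The exceptions came with the median of the unnamed rows in the model, added after the data were seen, which gave −0.34 for PUB19 and −2.05 for PUB23 after parabola 1. Between parabola groups it moved PUB19 (parabola 3 against 1, −0.61; parabola 10 against 1, −0.93), PUB23 (0.25 and −0.38) and PUB22 (parabola 10 against 1, 0.095). The cause was not tested. With arrays left out, PUB22 after parabola 3 ranged from −0.56 to −0.24 against level flight. The count of the other 6 PUB genes that passed was 0 under all alternatives. Over all genes 1378, 1850 and 2423 passed after parabola 1, 3 and 10. With all rows tested these were 2548, 3173 and 4460, at an adjusted p under 0.01 they were 763, 923 and 1356, and with the covariate parabola 1 gave 482. Centring on reference genes made 72.7% of parabola 1 calls lower, against 58.3%. Replicate numbers did not pair the arrays: 1 of 21 same-numbered pairs correlated over 0.1, and 5 of 15 arrays correlated best with arrays of their own number. A replicate block left 1375, 1820 and 2266 genes. It cannot change the 4 PUB differences from level flight after parabola 1 or 3, and it left those after parabola 10 in place (PUB23, −2.56).

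Alternatives for the lists, for single listed genes and between parabola groups were also chosen after the data were seen. Among the lists, immune receptors and kinases had 1 call after parabola 3 and 1 after parabola 10. The first was 0 with centring on reference genes, all rows, a replicate block or an adjusted p under 0.01, and the second was 0 with the arrays of the 2 groups alone or at 0.01. The 1 call of abscisic acid and dehydration after parabola 1 was 0 with the arrays of the 2 groups alone, at 0.01 and with the covariate. Early immune genes after parabola 3 had 1 call at 0.01, against 4. Ubiquitin machinery after parabola 1 had 1 call with centring on reference genes, trend and robust options or array weights, against 0. Leaving out 1 array gave 0 to 1 for each of these but the early immune genes, with 3 to 4. Abscisic acid and dehydration after parabola 10 had 3 calls where COR15A passed, against 2. How near PUB19, PUB15, PUB25, PUB39 and PUB54, the dim PUB genes, lay to background was not tested.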
